A study of Mus musculus with 9 samples.

Results

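The genes described here are the core of the MHC class I antigen presentation pathway in mouse liver. They are the classical heavy chain genes H2-K1 and H2-D1, the light chain gene B2m, the peptide transport and loading genes Tap1, Tap2 and Tapbp, the immunoproteasome subunit genes Psmb8, Psmb9 and Psmb10, and Nlrc5. The members were taken by gene symbol, with earlier results of these data known, and are 10 of the 45513 genes in the count table, and all 10 passed the filter on low counts that left 12102 genes for testing. Livers of C57BL/6 mice were collected after 9 weeks in 3 groups of 3 mice. The normal diet group and the high fat vehicle group both received vehicle, and the B-LGND2 group received B-LGND2 while fed the high fat diet. B-LGND2 is a compound given here only by its code name, and by its title the study concerns an estrogen receptor beta ligand. The dose, the composition of the diets and the sex of the mice were not stated in the labels, and the libraries analysed here hold no group given B-LGND2 on normal diet. The comparison of both vehicle groups addresses the diet, and the comparison within the high fat diet addresses the compound.

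MHC class I molecules carry short peptides from proteins made inside the cell to its surface, where CD8 T cells and natural killer cells read them. Proteasomes cut the peptides, the TAP transporter moves them into the endoplasmic reticulum, and tapasin helps load them onto a heavy chain bound to beta-2-microglobulin. Interferons raise most of these genes, partly through the transactivator NLRC5, and exchange the catalytic subunits of the proteasome for the immunoproteasome forms. Hepatocytes carry class I molecules at a lower level than the macrophages, lymphocytes and endothelial cells of the liver.

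The libraries held 5778978 to 10322972 counts, of which the 10 genes took 0.348 to 0.492%. Hepatocyte markers summed to between 66860 and 102800 CPM (counts scaled to a common library size) in every library, as the tissue label gives. Composition differed between the groups: ribosomal RNA genes took 3.16 to 3.74% of counts on normal diet, 0.901 to 1.44% in the high fat vehicle group and 4.31 to 6.19% in the B-LGND2 group. GC content was followed as a Spearman rho across the tested protein-coding genes. It compared a gene's GC content with the deviation of its log2 CPM from the mean of all libraries. The groups did not overlap: rho was -0.26 to -0.17 on normal diet, -0.114 to -0.0257 with high fat vehicle and 0.049 to 0.537 with B-LGND2. Replicate 1 of the B-LGND2 group, at 0.537, stood furthest apart, against -0.26 to 0.0742 elsewhere. For gene length, rho was 0.309 to 0.351 in the high fat vehicle group and -0.459 to 0.207 in the other libraries. Replicate 1 on normal diet had 12.7% mitochondrial counts against 3.69 to 6.12% elsewhere. The part of these differences in the results was not tested beyond the values given beside them. In RNA from whole liver, fewer cells of a type and less RNA per cell cannot be told apart.

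None of the 10 genes passed edgeR's quasi-likelihood test at an adjusted p of 0.05 in any comparison. The nearest was Psmb8, the LMP7 subunit of the immunoproteasome, with a fitted level 1.94-fold higher with B-LGND2 than with vehicle on the high fat diet (adjusted p = 0.0585). For the diet, 0 of 10 were called where 2.99% of all tested genes were. With B-LGND2 on the high fat diet, 0 of 10 were called and 5.63% of all genes were, and between the B-LGND2 and normal diet groups 0 of 10 and 2.93%. These comparisons share groups of libraries, so their values are set side by side and are not independent.

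At an unadjusted p under 0.05 the same test gave 1 of 10 for the diet (background 22.4%), 4 of 10 for B-LGND2 among high fat mice (background 23.7%) and 3 of 10 in the comparison across diet and compound (background 19.4%). The 4 genes with B-LGND2 were H2-D1, Tap2, Tapbp and Psmb8, all with higher fitted levels. DESeq2 called H2-K1 alone for the diet (adjusted p = 0.0416), where it called 9.49% of genes. For B-LGND2 on the high fat diet it called H2-D1 (adjusted p = 0.0484) and Psmb8 (adjusted p = 0.0254), beside 8.79% of genes, and in the comparison across diet and compound it called Psmb8 (adjusted p = 0.0163), against 4.94%. With 10 members, these counts differ from the background shares by less than 2 genes.

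The median log2 fold change of the 10 genes was -0.14 for the diet, 0.21 for B-LGND2 on the high fat diet and 0.16 across diet and compound. The medians over all tested genes were 0.005, -0.003 and -0.006. Without scaling of library sizes, the median of all genes moved to 0.171 for the diet and -0.178 for B-LGND2, and the members' medians to 0.037 and 0.025; the members' median across diet and compound was 0.158. With offsets for gene length and GC content the members' medians were -0.085, 0.084 and -0.065, beside -0.040, 0.034 and -0.025 for all genes, so the distance to all genes shrank and the sign across diet and compound turned. Leaving out 1 library moved the median for B-LGND2 to between 0.144 (without its replicate 1) and 0.358 (without its replicate 2). The median for the diet was -0.252 without replicate 2 and -0.049 without replicate 3 on normal diet, and that across diet and compound was 0.019 and 0.051 without the same libraries, 0.246 without replicate 1 on normal diet, and 0.071, 0.105 and 0.061 without replicates 1, 2 and 3 with B-LGND2. Estimates were positive for 4 of 10 genes for the diet and for 6 of 10 in each of the other comparisons, so the signs were mixed. Most intervals crossed 0, and whether the members shared a shift was not tested. The plot of levels by library shows the spread within each group.

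**Figure D1:**
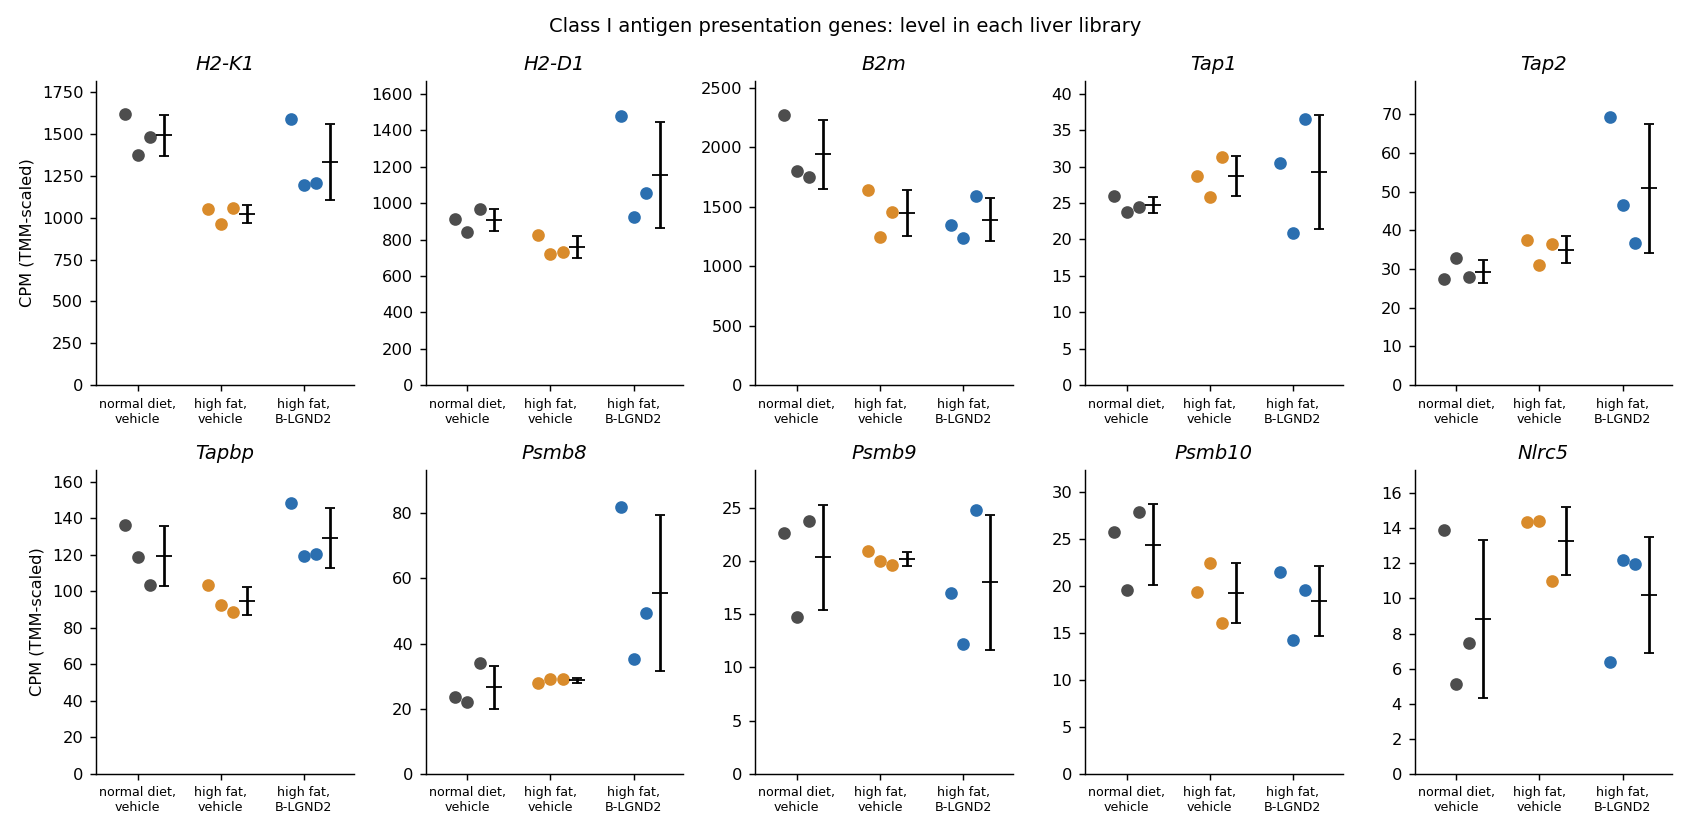
Level of each of the 10 genes in CPM (vertical axis, from 0) in the 9 libraries, by group (normal diet, then high fat with vehicle, then B-LGND2); each point is 1 library and the black bar gives the mean ± SD of 3. H2-K1 is lower in every high fat vehicle library than in every normal diet library, and Psmb8 is highest in the B-LGND2 group, where replicate 1 stands at 81.80 CPM.

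**Figure D2:**
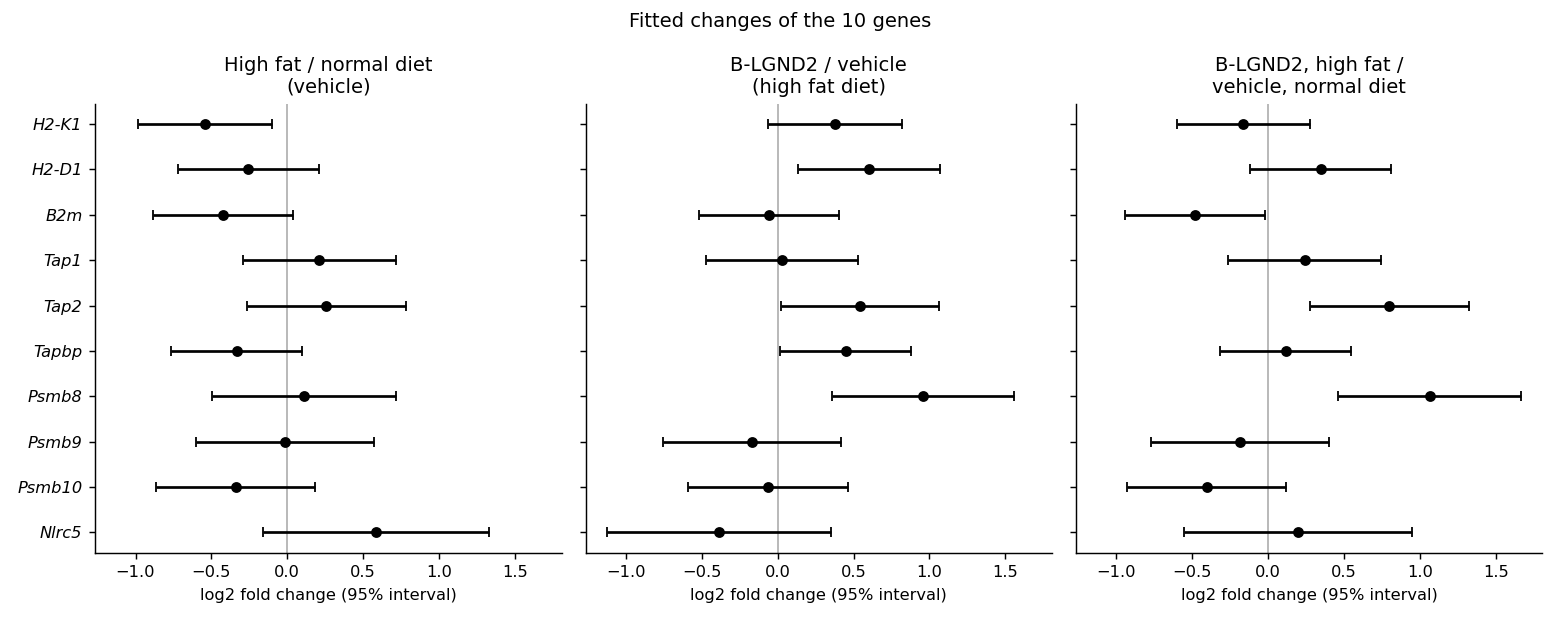
Log2 fold change with its 95% interval (horizontal axis) for each of the 10 genes in the 3 comparisons, from the edgeR fit over all 9 libraries. The intervals of H2-D1, Tap2, Tapbp and Psmb8 lie above 0 for B-LGND2 on the high fat diet, that of H2-K1 lies below 0 for the diet, and none passed the test after adjustment.

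Levels per kilobase of exon on normal diet ordered the genes over a wide range. The length is that of all annotated exons of a gene joined, over all its transcripts. Single transcripts can be shorter, so the order of genes at near levels can depend on this choice. B2m was highest, at 2256 ± 335 CPM per kilobase (SD, n = 3), followed by H2-K1 at 508 ± 41.7 and H2-D1 at 352 ± 24.1. The chains of the class I molecule thus stood well above the genes that supply its peptides: Tapbp was at 33.0 ± 4.55, Psmb10 at 14.3 ± 2.53, Psmb8 at 7.85 ± 1.94, Tap2 at 7.74 ± 0.797, Psmb9 at 5.57 ± 1.35 and Tap1 at 4.52 ± 0.194. Nlrc5 was lowest, at 1.04 ± 0.534 CPM per kilobase. Of neighbours in this order, Psmb8 and Tap2, and Psmb9 and Tap1, overlapped between libraries, and the others did not.

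The genes also share their place in the genome: 7 of the 10 lie on chromosome 17, in the mouse MHC. In GENCODE M21 on GRCm38, Psmb9 (chr17:34181987-34187764, minus strand), Tap1 (chr17:34187553-34197225, plus), Psmb8 (chr17:34197721-34201454, plus) and Tap2 (chr17:34203527-34216321, plus) follow each other. H2-K1 (ENSMUSG00000061232, chr17:33996017-34000347, minus) and Tapbp (chr17:33915899-33929292, plus) lie to one side and H2-D1 (ENSMUSG00000073411, chr17:35262730-35267499, plus) to the other. B2m lies on chr2:122147686-122153083, and Psmb10 (chr8:105935735-105938444) and Nlrc5 (chr8:94434356-94527272) on chromosome 8.

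Promoter windows from RefSeq on GRCm38.p6, from 250 bases before to 50 after the gene start, were found for 8 of the 10 genes; Tap2 and Nlrc5 had no entry matched. The start is RefSeq's and can differ from the GENCODE span above: the windows of H2-D1, Psmb8, Psmb9 and Tapbp lie wholly inside those spans. The windows of both heavy chains and of B2m are printed because these genes encode the subunits of 1 complex and their levels are compared next. Each is written 5′ to 3′ on the gene's own strand: H2-K1 at chr17:34000298-34000597 (minus), H2-D1 at chr17:35262844-35263143 (plus) and B2m at chr2:122147437-122147736 (plus). Capitals mark matches, on either strand, to 5 cores searched: the interferon-stimulated response element GAAANNGAAA, the gamma-activated sequence (GAS) TTCNNNGAA, the kappa B element GGGANNNNCC, the X2 element TGACGC and the Y box CCAAT, which reads ATTGG on the other strand.
H2-K1: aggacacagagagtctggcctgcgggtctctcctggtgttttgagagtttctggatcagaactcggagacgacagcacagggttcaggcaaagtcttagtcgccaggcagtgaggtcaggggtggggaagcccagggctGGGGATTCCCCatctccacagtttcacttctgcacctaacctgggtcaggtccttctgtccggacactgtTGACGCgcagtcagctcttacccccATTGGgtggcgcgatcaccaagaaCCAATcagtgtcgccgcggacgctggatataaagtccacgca
H2-D1: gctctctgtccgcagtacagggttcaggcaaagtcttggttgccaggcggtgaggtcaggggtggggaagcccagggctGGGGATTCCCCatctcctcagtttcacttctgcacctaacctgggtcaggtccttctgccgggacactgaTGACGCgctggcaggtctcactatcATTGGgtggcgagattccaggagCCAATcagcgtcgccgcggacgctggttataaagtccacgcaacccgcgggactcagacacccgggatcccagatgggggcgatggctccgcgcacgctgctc
B2m: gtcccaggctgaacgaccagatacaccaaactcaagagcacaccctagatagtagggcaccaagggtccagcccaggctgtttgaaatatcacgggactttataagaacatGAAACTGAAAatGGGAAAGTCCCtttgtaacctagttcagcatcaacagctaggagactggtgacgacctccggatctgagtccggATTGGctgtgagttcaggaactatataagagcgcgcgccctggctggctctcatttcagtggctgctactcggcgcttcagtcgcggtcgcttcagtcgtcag
The H2-K1 and H2-D1 windows were identical at 211 of 239 aligned positions (88.3%). Both hold the kappa B core, the X2 core and the Y box on each strand, and B2m holds the interferon core, the kappa B core and a Y box. Among all 32851 windows of this length, 20.7% hold the kappa B core, 7.40% the X2 core, 37.4% the Y box and 3.44% the interferon core. The kappa B matches on both strands of 1 place overlap each other. A match describes the letters only and shows neither binding nor use.

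H2-K1 encodes the K heavy chain of class I. On normal diet it stood at 1620, 1376 and 1483 CPM in replicates 1, 2 and 3, in the high fat vehicle group at 1054, 963.4 and 1058, and with B-LGND2 at 1593, 1199 and 1209. All high fat vehicle libraries were below all libraries of both other groups. The log2 fold change for the diet was -0.54 (SE 0.21, 95% interval -0.98 to -0.10), which did not pass edgeR's test (adjusted p = 0.139). For B-LGND2 on the high fat diet it was 0.38 (SE 0.21, interval -0.06 to 0.82, edgeR adjusted p = 0.279), and against normal diet with vehicle the B-LGND2 value was -0.16 (interval -0.60 to 0.28, edgeR adjusted p = 0.714), with overlapping libraries.

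H2-D1 encodes the D heavy chain. It measured 912.5, 843.4 and 967.4 CPM on normal diet, 827.5, 721.9 and 730.2 in the high fat vehicle group, and 1481, 925.9 and 1055 with B-LGND2. The high fat vehicle libraries were again the lowest 3 of the 9, and replicate 1 with B-LGND2 was the highest. For B-LGND2 on the high fat diet the log2 fold change was 0.60 (SE 0.22, interval 0.14 to 1.07), a 1.52-fold higher level that did not pass edgeR's test (adjusted p = 0.109) and passed only with DESeq2. Without replicate 1 of the B-LGND2 group it was 0.41 (edgeR adjusted p = 0.312). The diet value was -0.26 (SE 0.22, edgeR adjusted p = 0.516). The heavy chains and their relatives are nearly identical over long stretches, so the split of reads between H2-K1, H2-D1 and the H2-Q genes is uncertain.

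B2m encodes beta-2-microglobulin, the light chain shared by all class I molecules. Its levels were 2272, 1800 and 1750 CPM on normal diet, 1637, 1245 and 1460 in the high fat vehicle group, and 1346, 1234 and 1589 with B-LGND2. Every library on the high fat diet, with or without B-LGND2, was below every library on normal diet. The log2 fold change was -0.42 for the diet (SE 0.22, interval -0.88 to 0.04, edgeR adjusted p = 0.263) and -0.48 between B-LGND2 and normal diet (SE 0.22, interval -0.94 to -0.02, edgeR adjusted p = 0.235). With offsets for gene length and GC content the diet value turned to 0.06. Over the 18 alternatives the value between B-LGND2 and normal diet ranged from -0.589 to -0.033, and B2m was called in none. Between the high fat groups the log2 fold change was -0.06 (interval -0.52 to 0.40, edgeR adjusted p = 0.893). That interval leaves room for a change in either direction.

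For the diet, the 3 genes whose libraries did not overlap, all lower on high fat diet, were H2-K1, H2-D1 and B2m, the chains of the class I molecule, where 14.8% of all genes were separated in that direction. With B-LGND2 on the high fat diet 4 of 10 were separated with higher levels, H2-K1, H2-D1, Tapbp and Psmb8, where 16.4% of all genes were. Across diet and compound Tap2 and Psmb8 were separated with higher levels (background 10.5%) and B2m with lower levels (background 10%).

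The balance between the chains was followed as ratios of counts within a library, which scaling does not touch. A ratio does not remove effects of GC content or length that differ between its 2 genes. GC content was 55.3% for H2-K1, 53.9% for H2-D1 and 41.2% for B2m. The part of GC content and length in the ratios was not tested. H2-D1 stood at 0.610 ± 0.0446 counts per count of H2-K1 on normal diet, 0.741 ± 0.0479 in the high fat vehicle group and 0.858 ± 0.0797 with B-LGND2 (SD, n = 3). This ratio depends directly on the uncertain split of reads between H2-K1 and H2-D1. The groups did not overlap for the diet (log2 difference 0.28) or across diet and compound (0.49), each with an exact permutation p of 0.1, the smallest that 3 against 3 libraries allow. Over the 18 ratio tests the adjusted value for a p of 0.1 was 0.257. H2-D1 per count of B2m, a pair chosen after its values were seen, was 0.5056, 0.5797 and 0.5002 in the high fat vehicle group and 1.1, 0.7502 and 0.6637 with B-LGND2, without overlap (log2 difference 0.63, exact permutation p = 0.1). For H2-K1 per count of B2m the high fat groups overlapped.

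Tap1 and Tap2 encode the paired subunits of the transporter that carries peptides into the endoplasmic reticulum. Tap1 shares its promoter region with Psmb9, which is read in the opposite direction: 275 of the 300 bases of both windows are the same stretch, chr17:34187306-34187580. The Tap1 window, chr17:34187306-34187605 on the plus strand, is printed because most of it lies in the windows of both genes, with its only match, a Y box, in capitals.
Tap1: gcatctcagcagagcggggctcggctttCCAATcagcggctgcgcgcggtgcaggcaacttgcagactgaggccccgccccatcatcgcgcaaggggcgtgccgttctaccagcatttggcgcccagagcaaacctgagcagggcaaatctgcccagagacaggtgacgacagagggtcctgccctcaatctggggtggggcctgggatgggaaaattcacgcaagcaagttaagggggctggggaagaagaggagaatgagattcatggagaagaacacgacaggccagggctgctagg
Tap1 measured 25.89, 23.81 and 24.48 CPM on normal diet, 28.69, 25.87 and 31.36 in the high fat vehicle group, and 30.47, 20.89 and 36.47 with B-LGND2. The B-LGND2 libraries spanned those of both other groups. The log2 fold change was 0.03 for B-LGND2 on the high fat diet (interval -0.47 to 0.53, edgeR adjusted p = 0.952) and 0.21 for the diet (interval -0.29 to 0.72, edgeR adjusted p = 0.630). Tap1 and Psmb9 also overlap over 212 exonic bases on opposite strands, and the strand setting of the counting of HTSeq was not stated in the labels.

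Tap2 measured 27.29, 32.74 and 27.80 CPM on normal diet, 37.60, 30.98 and 36.38 in the high fat vehicle group, and 69.28, 46.50 and 36.64 with B-LGND2. All B-LGND2 libraries were above all normal diet libraries, while the lowest of them fell within the high fat vehicle group. The log2 fold change was 0.80 between B-LGND2 and normal diet with vehicle (SE 0.25, interval 0.28 to 1.32, a 1.74-fold higher level, edgeR adjusted p = 0.0933). Between the high fat groups it was 0.54 (SE 0.25, interval 0.02 to 1.06, edgeR adjusted p = 0.193). Neither passed the test, here or in any of the 18 alternatives. Over these alternatives the value against normal diet ranged from 0.455 to 0.984 and that between the high fat groups from 0.262 to 0.727. Whether Tap1 and Tap2 differed from each other in response was not tested.

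Tapbp encodes tapasin, which holds empty class I molecules at the transporter. It stood at 136.5, 118.7 and 103.5 CPM on normal diet, 103.6, 92.49 and 88.51 in the high fat vehicle group, and 148.5, 119.3 and 120.4 with B-LGND2. The B-LGND2 libraries were all above the high fat vehicle libraries, and both vehicle groups met at 103.5 and 103.6 CPM. The log2 fold change was 0.45 for B-LGND2 on the high fat diet (SE 0.20, interval 0.02 to 0.88, edgeR adjusted p = 0.194) and -0.33 for the diet (SE 0.20, edgeR adjusted p = 0.351). Over the 18 alternatives the value for B-LGND2 on the high fat diet ranged from 0.268 to 0.525, and Tapbp was called in none. Tapbp shares 149 exonic bases on the same strand with Zbtb22, which had 178 to 347 counts per library.

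Among 11 further genes of peptide loading and trimming, all tested, none was called for B-LGND2 on the high fat diet by edgeR or DESeq2, 1 had an unadjusted p under 0.05, and the median log2 fold change was -0.13. That gene was Tapbpl, a tapasin relative that edits the bound peptide, at 0.57 (edgeR adjusted p = 0.130). For the diet, Sec61b, a subunit of the translocation channel, fell by 1.17 on the log2 scale (edgeR adjusted p = 0.0369), and edgeR called no other gene of the list. DESeq2 also called Pdia3, a chaperone of the loading complex, whose edgeR value was -0.72 (adjusted p = 0.0921, DESeq2 0.0392).

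The immunoproteasome genes each have a standing counterpart that interferon displaces: Psmb8 replaces Psmb5, Psmb9 replaces Psmb6 and Psmb10 replaces Psmb7. The Psmb8 window, chr17:34197945-34198244 on the plus strand, is shown because Psmb8 had the largest log2 fold change of the 10 genes for B-LGND2. It was the only one of the 8 windows with the GAS core, in capitals, which 8.30% of all windows hold.
Psmb8: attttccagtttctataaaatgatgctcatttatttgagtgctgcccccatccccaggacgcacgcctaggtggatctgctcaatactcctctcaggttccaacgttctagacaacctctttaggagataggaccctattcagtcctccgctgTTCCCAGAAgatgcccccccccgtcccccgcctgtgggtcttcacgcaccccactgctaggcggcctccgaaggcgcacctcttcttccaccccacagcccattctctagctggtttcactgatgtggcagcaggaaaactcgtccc
Psmb8 measured 23.55, 21.99 and 34.02 CPM on normal diet, 27.87, 29.03 and 29.13 in the high fat vehicle group, and 81.80, 35.31 and 49.46 with B-LGND2. These rest on 133 to 246 counts per library without the compound and on 706, 240 and 297 with it. All B-LGND2 libraries were above all others, and they spread more widely (SD 23.8 CPM, against 0.700 in the high fat vehicle group). For B-LGND2 on the high fat diet the log2 fold change was 0.96 (SE 0.28, interval 0.36 to 1.56, edgeR adjusted p = 0.0585), which lies at percentile 93.2 of all tested genes. Against normal diet with vehicle it was 1.07 (SE 0.28, interval 0.46 to 1.67, a 2.09-fold higher level, edgeR adjusted p = 0.0541). The diet value was 0.11 (interval -0.49 to 0.71, edgeR adjusted p = 0.852).

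The side of the threshold on which Psmb8 fell depended on the processing. For B-LGND2 on the high fat diet it was called in 6 of 18 alternatives: with DESeq2, without the filter on low counts (adjusted p = 0.00921), with the 2 high fat groups alone (0.0321), and without replicate 1 (0.0405) or replicate 3 (0.0239) on normal diet or replicate 2 with B-LGND2 (0.0277). Without replicate 1 of the B-LGND2 group, the library that stood apart in GC content, the log2 fold change was 0.59 (edgeR adjusted p = 0.253), and with offsets for gene length and GC content it was 0.79 (edgeR adjusted p = 0.0593). Against normal diet with vehicle it was called in 5 of 18 alternatives, among them without replicate 3 on normal diet (0.033) and without replicate 2 with B-LGND2 (0.0316), and without replicate 1 of the B-LGND2 group it was 0.68 (edgeR adjusted p = 0.228). The direction was the same in every alternative run for these 2 comparisons.

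Psmb9 encodes the LMP2 subunit. It measured 22.61, 14.72 and 23.79 CPM on normal diet, 20.94, 20 and 19.65 in the high fat vehicle group, and 17.03, 12.21 and 24.81 with B-LGND2. The libraries of every group overlapped, and the log2 fold change for B-LGND2 on the high fat diet was -0.17 (interval -0.75 to 0.42, edgeR adjusted p = 0.751). Psmb10 encodes the MECL-1 subunit and measured 25.73, 19.51 and 27.80 CPM on normal diet, 19.29, 22.41 and 16.03 in the high fat vehicle group, and 21.43, 14.27 and 19.48 with B-LGND2. Its libraries overlapped too, with log2 fold changes of -0.34 for the diet (edgeR adjusted p = 0.440) and -0.06 for the compound (interval -0.59 to 0.47, edgeR adjusted p = 0.900).

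Within a library, Psmb8 per count of Psmb5 was 0.1505, 0.1805 and 0.2083 on normal diet, 0.2178, 0.2029 and 0.1535 in the high fat vehicle group, and 0.4954, 0.3738 and 0.2812 with B-LGND2. The B-LGND2 libraries were all higher than the rest, with a log2 difference of 0.98 between the high fat groups (exact permutation p = 0.1, adjusted 0.257 over 18 tests). Psmb9 per count of Psmb6 was 0.722 ± 0.0366 in the high fat vehicle group and 0.709 ± 0.141 with B-LGND2 (SD, n = 3; log2 difference -0.04, exact permutation p = 0.9). Psmb10 per count of Psmb7 was 0.479 ± 0.0409 and 0.695 ± 0.0595 in the same groups, without overlap (log2 difference 0.54, exact permutation p = 0.1). That ratio moved with its denominator: Psmb7 was at 39.99 CPM with vehicle and 26.34 with B-LGND2 (log2 fold change -0.60, edgeR adjusted p = 0.112). GC content was 58.3% for Psmb10 and 43.1% for Psmb7, 54.3% for Psmb8 and 57% for Psmb5, and 54.4% for Psmb9 and 52.7% for Psmb6. The part of GC content and length in these ratios was not tested either.

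**Figure D3:**
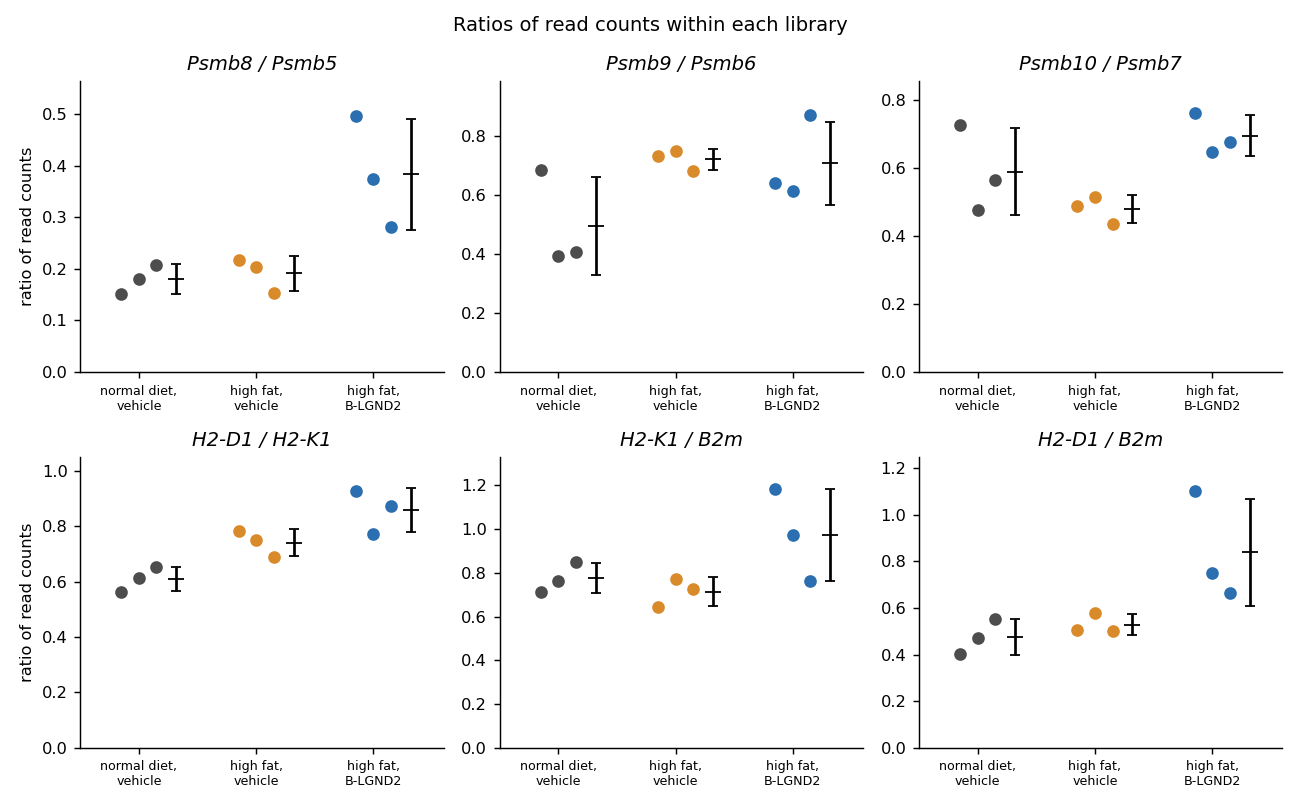
Ratio of counts within a library (vertical axis, from 0) for the immunoproteasome subunits against their standing counterparts and for the class I chains against each other; each point is 1 library of the 3 groups and the black bar gives the mean ± SD of 3. Psmb8 against Psmb5 is higher in all B-LGND2 libraries (0.2812 to 0.4954) than in the other 6, while Psmb9 against Psmb6 overlaps between the high fat groups.

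The rest of the proteasome was followed in 2 lists. Of 13 tested standing subunits of the 20S core, none was called for B-LGND2 on the high fat diet by edgeR or DESeq2, 2 had an unadjusted p under 0.05, and the median was 0.06. For the diet 12 of 13 had negative values (median -0.52), where 6007 of all 12102 tested genes had. At an unadjusted p under 0.05 in edgeR, 6 were lower and 0 higher (background 22.4% in either direction). After adjustment 1 was called, where 2.99% of all genes were: Psma2 fell by 1.07 on the log2 scale (edgeR adjusted p = 0.0289). Between B-LGND2 and normal diet, which shares the normal diet libraries, all 13 had negative values (median -0.57). At an unadjusted p under 0.05 in edgeR, 5 were lower and 0 higher (background 19.4% in either direction). After adjustment 1 was called there, where 2.93% of all genes were: Psmb3 fell by 1.28 (edgeR adjusted p = 0.0219). DESeq2 called 3 of the 13 in that comparison (background 4.94%) and 2 for the diet (background 9.49%). Of the PA28 activator genes and the assembly factor Pomp, edgeR called none of 4 in any comparison. DESeq2 called 2 for the diet: Psme1, a PA28 subunit, with an edgeR value of -0.93 (adjusted p = 0.0593, DESeq2 0.0192), and Pomp, at -0.91 (adjusted p = 0.0915, DESeq2 0.0403).

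Nlrc5 encodes the transactivator that binds class I promoters through the X and Y box proteins. It had the fewest counts of the 10 genes, 31 to 96 per library, and measured 13.88, 5.127 and 7.469 CPM on normal diet, 14.35, 14.44 and 11.01 in the high fat vehicle group, and 6.372, 12.21 and 11.99 with B-LGND2. Replicate 1 on normal diet, the library with the high mitochondrial share, lay within the high fat vehicle group. The log2 fold change for the diet was 0.59 (SE 0.35, interval -0.16 to 1.33, edgeR adjusted p = 0.343), and without that replicate it was 1.06 (edgeR adjusted p = 0.0478). For B-LGND2 on the high fat diet it was -0.39 (SE 0.35, interval -1.13 to 0.35, edgeR adjusted p = 0.524), and the libraries of the high fat groups overlapped.

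Of 22 transcription factors and interferon signalling genes that act on class I, all tested, 1 rose and 1 fell with B-LGND2 on the high fat diet. For the diet, Irf2, an interferon regulatory factor, rose from 49.7 to 100.7 CPM (log2 fold change 1.02, SE 0.24, edgeR adjusted p = 0.0364). With B-LGND2 on the high fat diet, Rfxap, a subunit of the X box binding complex, rose from 19.5 to 36.6 CPM (0.91, SE 0.23, edgeR adjusted p = 0.0335), and Nfyc, a subunit of the Y box binding complex, fell from 3.59 to 0.946 CPM (-1.95, SE 0.55, edgeR adjusted p = 0.0489). The NF-kappa B subunit Rela had a value of 0.65 (edgeR adjusted p = 0.0680, DESeq2 0.0203) in that comparison, while Irf1, a direct activator of class I genes, was at 0.02 (edgeR adjusted p = 0.965). Between B-LGND2 and normal diet, Nfyb, another Y box subunit, fell by 0.98 on the log2 scale (edgeR adjusted p = 0.0434). The list's medians were 0.06, 0.03 and 0.19 in the 3 comparisons.

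The calls of these genes outside the set of 10 depended on single libraries and on the processing. Those for the diet (Irf2, Psma2 and Sec61b, with Igtp below) were each lost without any 1 of the high fat vehicle libraries and without replicate 2 or 3 on normal diet, with adjusted p of up to 0.158, 0.128, 0.155 and 0.157 over the alternatives. Irf2 was also lost without replicate 1 or 2 with B-LGND2. Rfxap was lost without any 1 high fat vehicle library or replicate 1 or 2 with B-LGND2 (up to 0.155), and Nfyc without any 1 library of the high fat groups or replicate 2 on normal diet (up to 0.189). Psmb3 was lost without replicate 3 on normal diet or replicate 1 with B-LGND2 (up to 0.0877), and Nfyb without any 1 library but replicate 1 on normal diet (up to 0.139). Without scaling, Psma2, Sec61b, Igtp, Rfxap and Nfyb were not called (adjusted p of 0.066, 0.084, 0.101, 0.0922 and 0.0824). With length and GC offsets, Psma2, Sec61b, Igtp and Nfyb were not (0.0522, 0.0608, 0.0762 and 0.052). With only the 2 groups compared, Irf2, Igtp, Psmb3 and Nfyb were not (0.0688, 0.0502, 0.0676 and 0.125), and with the size factors of DESeq2 Nfyc was not (0.05).

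The other heavy chains had the same sign as H2-K1 and H2-D1 for the compound. Of 15 class Ib and Q, T and M region genes listed, 9 were tested and none was called by edgeR in any comparison. With B-LGND2 on the high fat diet all 9 tested had positive values, where 6011 of all 12102 tested genes had. Their median was 0.36, and 0.22 with length and GC offsets. Of the 9, 2 had an unadjusted p under 0.05 in edgeR (background 23.7%) and DESeq2 called 1 (background 8.79%). Since reads can be split between these paralogs and H2-K1 or H2-D1, they are not separate measurements. H2-Q10, a heavy chain secreted by the liver, was the most abundant, at 3127, 4876 and 6472 CPM on normal diet, 2195, 2803 and 2565 in the high fat vehicle group, and 5558, 3550 and 3865 with B-LGND2. All high fat vehicle libraries were below all others. The log2 fold changes were -0.94 for the diet (edgeR adjusted p = 0.0686) and 0.78 for the compound (SE 0.27, edgeR adjusted p = 0.0972). DESeq2 called H2-Q10 in both (adjusted p = 0.0118 for the diet and 0.046 for the compound). H2-Q6 had 0.60 (edgeR adjusted p = 0.197), H2-T23, the Qa-1 heavy chain, 0.39 (edgeR adjusted p = 0.307) and H2-Q4 0.35 (edgeR adjusted p = 0.340).

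Of 5 other genes whose products pair with beta-2-microglobulin, 4 were tested and 1 was called. Cd1d1, which presents lipids to natural killer T cells, fell with B-LGND2 from 127 ± 13.7 to 62.6 ± 10.8 CPM (SD, n = 3; log2 fold change -1.02, SE 0.23, edgeR adjusted p = 0.0202), opposite in sign to the heavy chains. The fall against normal diet with vehicle was 1.22 on the log2 scale (a value of -1.22, edgeR adjusted p = 0.00992). The call within the high fat diet was lost without any 1 high fat vehicle library or replicate 1 with B-LGND2 (adjusted p of up to 0.105), and the call against normal diet without replicate 1 with B-LGND2 (0.0522). Fcgrt, the neonatal Fc receptor, had 0.55 (edgeR adjusted p = 0.194), Hfe, a regulator of iron uptake, 0.40 (edgeR adjusted p = 0.265) and Mr1, which presents vitamin metabolites, 0.70 (edgeR adjusted p = 0.316).

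Interferon response genes were counted because interferon drives the 10 genes in many cells. Of 25 tested, 1 rose with B-LGND2 on the high fat diet, where 3.07% of all genes were called higher: Bst2, which tethers budding virus, with a log2 fold change of 1.08 (SE 0.28, edgeR adjusted p = 0.0375). That call was lost without any 1 high fat vehicle library, replicate 2 on normal diet, or replicate 1 or 3 with B-LGND2 (adjusted p of up to 0.169), and also without scaling (0.0616) and with length and GC offsets (0.0893). The list's median was 0.27, and Isg15, a ubiquitin-like modifier, had 1.05 (edgeR adjusted p = 0.0761, DESeq2 0.0484) and Irf7 0.79 (edgeR adjusted p = 0.0770, DESeq2 0.0455). DESeq2 called 3 of the 25, beside 8.79% of genes. For the diet Igtp, an interferon-induced GTPase, fell by 0.88 on the log2 scale (edgeR adjusted p = 0.0366), and the median was -0.11.

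Markers of macrophages and of leukocytes in general were higher with the compound, and are given beside the values of the 10 genes. Of 17 macrophage and Kupffer cell markers, 12 rose with B-LGND2 on the high fat diet, none fell, and the median log2 fold change was 1.42. Their summed level was 422.7 to 555.6 CPM in the high fat vehicle group, 1336 to 1706 with B-LGND2 and 433.8 to 701.5 on normal diet. C1qa, a complement gene of macrophages, rose from 37.17 to 169.2 CPM (log2 fold change 2.19, edgeR adjusted p = 0.000504). The count was 5 without replicate 1 and 6 without replicate 2 of the high fat vehicle group. Of 7 pan-leukocyte genes 4 rose (median 1.57; summed 37.75 to 45.58 CPM with vehicle and 96.38 to 147 with B-LGND2), and 2 were called without replicate 1 or 2 of the high fat vehicle group or replicate 3 with B-LGND2.

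Class II genes, which mark professional antigen presenting cells, had larger values than the class I genes. Of 10 listed, 6 were tested, with a median of 1.25 for B-LGND2 on the high fat diet, and 2 rose: H2-Eb1 (1.31, edgeR adjusted p = 0.0485) and H2-DMb1 (2.03, edgeR adjusted p = 0.0489). No class II gene was called without replicate 2 on normal diet, replicate 2 or 3 of the high fat vehicle group, or replicate 1 or 3 with B-LGND2. The same held without scaling and with length and GC offsets. It also held with the filter of 50 counts in 3 libraries, which left 4 of these genes. The difference between the class II and class I medians was not tested.

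Lymphocyte markers were near the floor of detection. Of 15 T and natural killer cell markers 2 were tested and none was called by edgeR or DESeq2, with 1 at an unadjusted p under 0.05 for B-LGND2 on the high fat diet. Cd8a, the co-receptor that binds class I, had 0 to 3 counts per library and Cd3e, a T cell receptor subunit, 1 to 8. The summed level of the list was 5.854 to 7.67 CPM in the high fat vehicle group, 9.616 to 12.82 with B-LGND2 and 4.796 to 7.607 on normal diet. For B cells, 1 of 6 markers was tested and was not called (Ighm, 0.49), and for dendritic cells 2 of 8, with none called (summed 9.926 to 12.68 CPM with vehicle and 9.326 to 10.59 with B-LGND2). Both tested dendritic cell markers had negative values for B-LGND2 on the high fat diet (median -0.68), 1 of them at an unadjusted p under 0.05 in edgeR.

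Among the cells of the vessel wall and the bile duct, 1 of 11 endothelial markers rose with B-LGND2 on the high fat diet (Kdr; list median 0.50; summed 219.7 to 275.2 CPM with vehicle and 321.5 to 396.8 with B-LGND2). None of 9 stellate cell markers was called by edgeR or DESeq2, with 2 at an unadjusted p under 0.05 (median 0.30), and 1 of 3 tested cholangiocyte markers rose (Spp1). Of 8 tested hepatocyte markers 1 rose (Apoa1, 1.40, edgeR adjusted p = 0.0283), and the median was 0.04. At an unadjusted p under 0.05 in edgeR, 1 hepatocyte marker was higher and 2 were lower. No endothelial marker was called without scaling, without replicate 2 on normal diet, without any 1 high fat vehicle library, or without replicate 1 or 3 with B-LGND2. Apoa1 was not called without any 1 high fat vehicle library or replicate 1 with B-LGND2, and Spp1 not without scaling, any 1 high fat vehicle library or replicate 3 with B-LGND2. The part of the macrophage, leukocyte and endothelial markers in the values of H2-K1, H2-D1, Tap2, Tapbp and Psmb8 was not tested.

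**Figure D4:**
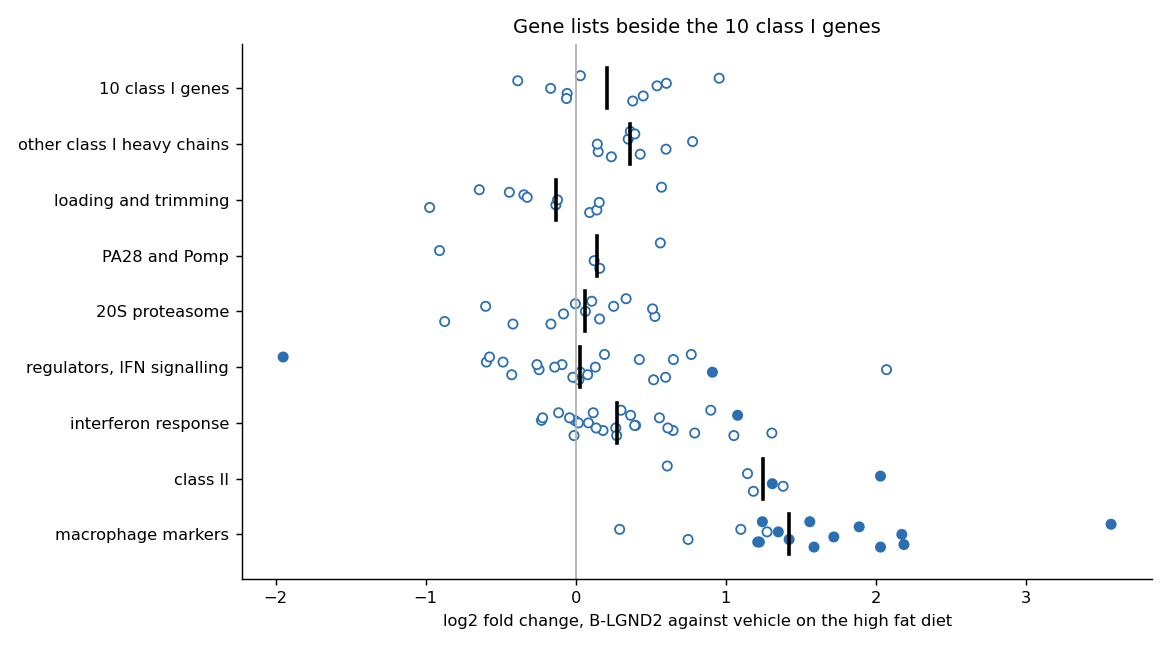
Log2 fold change of the B-LGND2 group over the high fat vehicle group (horizontal axis) of each tested gene, by list; filled points have an edgeR adjusted p under 0.05 and the black line is the list's median. The class I members have no filled point and a median of 0.21, while the macrophage list has 12 filled points and a median of 1.42.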

How the data were processed

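Poly(A)-enriched liver RNA was sequenced on an Ion Torrent Proton, per the labels' protocols. The authors deposited 1 table of raw read counts per gene for all 9 libraries. The submitters' processing notes list HTSeq 0.6.1p1, DESeq2 1.6.3, SAMtools 0.1.19, Bowtie2 2.2.4 and TopHat2 2.0.13 with the build GRCm38.p3; annotation release, strand setting and assignment mode: not given in the sources used here. GENCODE M21 (GRCm38) gave symbols for 44671 of 45513 IDs.

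In R 4.3.3, filterByExpr of edgeR 4.0.16 (minimum count 10) kept 12102 genes. Counts were scaled by TMM, and 1 robust quasi-likelihood model of the 9 libraries had group as its term (6 residual degrees of freedom). Tests were two-sided, with Benjamini-Hochberg adjustment over all genes tested and a threshold of 0.05. CPM use TMM-scaled library sizes. Ratios of counts were compared by two-sided exact permutation tests. The fit was checked on simulated counts. Alternatives were DESeq2 1.42.0, its size factors, unscaled libraries, all genes with counts, at least 50 counts in 3 libraries, length and GC offsets (mgcv 1.9.3), only the 2 groups compared, a replicate block and each library left out; leaving out 2 libraries together was added after seeing the data. Libraries differed beyond sampling noise (chi-square per degree of freedom of at least 12.9). The labels name no batch, and p-values reflect only the variation among these libraries, which may be partly technical.

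The 10 members and the 17 other lists were chosen with earlier results of these data known. Named from each other list were up to 4 genes with the smallest p for B-LGND2 on the high fat diet and any gene called, given in full only where a class I result turns on them. Genes named outside this rule, such as Irf1, Cd8a and Cd3e, were chosen after their values were seen. A result for 1 listed gene is not reported here.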

Additional observations from a re-analysis of the deposited data

How the results depend on the processing

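Over all members, comparisons and alternatives, 502 of 540 values of log2 fold change kept their direction and side of the threshold, 23 changed sign without passing the test in either fit, and 15 passed the threshold only in the alternative. As reported, edgeR called 362, 681 and 354 genes for the diet, for B-LGND2 on the high fat diet and across both, and 0, 0 and 0 members. Without the filter the counts were 1182, 1345 and 751, with 1 member for B-LGND2 and 1 across both. DESeq2 called 973, 1084 and 609 genes, with 1, 2 and 1 members. With only the 2 groups compared the counts were 153, 1420 and 144, with 1 member for B-LGND2. Without scaling 1 member was called across both, and 260 of its diet calls were higher and 98 lower, with 211 and 468 for B-LGND2 (with TMM, 182 and 180, then 371 and 310). Leaving out each library in turn gave 35 to 1860 genes for the diet, 100 to 1439 for B-LGND2 and 111 to 639 across both, with 0 to 1 members in each. Leaving out 2 libraries together, replicate 1 on normal diet and replicate 1 with B-LGND2, gave 2381 genes and 1 member (Nlrc5) for the diet and 414 genes for B-LGND2. With the replicate number as a block the counts were 203, 492 and 253, with 0 members, and Igtp, Rfxap, Nfyc, Nfyb, Bst2, Kdr and Apoa1 were not called. Libraries with the same number did not deviate together: 9 same-number pairs correlated from -0.199 to 0.128 and 18 other pairs from -0.132 to 0.185, so the numbers were not taken as pairs. The cause of these differences between settings was not tested. With 31 to 96 counts per library, Nlrc5 was the member most limited by depth.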
